A study of Rattus norvegicus with 9 samples.

Results

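Yap knock-down was compared with a control virus in primary neonatal rat cardiomyocytes, across the annotated microRNAs (miRNAs) of the cells. The members are the entries of the deposited table that carry a rat miRNA name, 653 of 1422 entries, the other 769 being predicted entries without one. The cells came from the hearts of newborn Sprague Dawley rats, were wild type before infection, were kept in normal glucose and were sampled 48 h after adenovirus. Ad-GFP, which delivers green fluorescent protein, is the control (3 libraries), and Ad-Yap shRNA carries a short hairpin RNA that lowers Yap (3 libraries). Another group, Ad-Yap WT, overexpressed Yap (3 libraries) and enters only where a level with knock-down is set beside it. The labels describe no virus with a hairpin that has no target, so Yap loss and the presence of a hairpin RNA cannot be told apart. Yap mRNA is not in a miRNA table, so the depth of the knock-down was not measured here. Whether the libraries of a group came from separate cultures or litters is not stated in the labels, so p-values reflect variation among these libraries that may be technical only.

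Yap is a transcriptional co-activator at the end of the Hippo kinase pathway. It has no DNA binding domain of its own and acts mainly through TEAD factors, and in the newborn heart it is known for supporting cardiomyocyte proliferation. A miRNA is cut from a hairpin precursor by Drosha and Dicer, either arm (5p or 3p) can be loaded into an Argonaute protein, and bases 2 to 8 of the mature strand, the seed, pair with target mRNAs. Arms of 1 hairpin share a primary transcript, as do hairpins that lie in a cluster, while family members share a seed and can come from different chromosomes.

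A mature sequence could be matched in RefSeq (GRCr8) for 587 of the 653 annotated miRNAs, and for 396 of the 428 that were tested. The sequences below are those the results turn on, written 5′ to 3′ with the seed in capitals. The first group holds miRNAs that were lower with knock-down, and the second miRNAs that were higher.
miR-204-5p: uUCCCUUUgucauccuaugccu
miR-211-5p: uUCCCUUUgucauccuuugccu
miR-199a-5p: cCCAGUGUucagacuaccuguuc
miR-199a-3p: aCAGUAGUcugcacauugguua
miR-674-5p: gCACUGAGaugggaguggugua
miR-351-5p: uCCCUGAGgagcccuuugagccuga
miR-31a-5p: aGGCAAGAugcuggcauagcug
Those that were higher follow.
miR-7a-5p: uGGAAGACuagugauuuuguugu
miR-7b: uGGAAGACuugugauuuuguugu
miR-146a-5p: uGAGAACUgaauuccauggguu
miR-96-5p: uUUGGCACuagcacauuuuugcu
miR-182: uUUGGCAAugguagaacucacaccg
miR-22-3p: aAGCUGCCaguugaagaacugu
miR-30a-5p: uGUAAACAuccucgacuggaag
miR-30c-5p: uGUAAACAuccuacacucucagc
The last group shows a seed whose members went different ways.
miR-17-5p: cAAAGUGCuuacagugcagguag
miR-20a-5p: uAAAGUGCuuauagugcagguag
miR-106b-5p: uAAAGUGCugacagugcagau
miR-20b-5p: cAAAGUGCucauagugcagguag
The mature strands of miR-204-5p and miR-211-5p differ at 1 base of 22 compared, and those of miR-7a-5p and miR-7b at 1 base of 23. The sources used here do not say how reads that match both were assigned, so the levels of the rarer member of each pair are uncertain.

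The libraries differed before any single miRNA was compared. Annotated miRNAs held 3.43 ± 0.064 M reads (M = 1e+06) per library with Ad-GFP and 1.62 ± 0.31 M with Ad-Yap shRNA (SD, n = 3 each, exact permutation p = 0.1, the smallest that 3 against 3 allows). Their share of the library total that the authors divided by was 24.5 ± 0.56% with Ad-GFP and 7.75 ± 1.4% with Ad-Yap shRNA, and the 10 most abundant annotated miRNAs took 28.2 ± 0.44% and 39.6 ± 1.8% of the annotated reads. For none of these 3 measures did the groups overlap. The library total itself ran the other way, at 13.7 to 14.3 M with Ad-GFP and 20.5 to 21.2 M with Ad-Yap shRNA, so the knock-down libraries held fewer miRNA reads within larger totals. The shRNA libraries held 1.97, 1.51 and 1.38 M annotated reads, so the difference is within 1 direction but the 3 libraries vary more than the controls. The loss was uneven across abundance. The 29 tested miRNAs with a mean of at least 50000 control reads kept a median of 54.4% of them, whereas the 3 classes from 100 to 50000 reads kept 31.5 to 32.4%. The tested miRNAs below 100 reads kept 38.4%. Some of these passed the count filter only through libraries other than Ad-GFP, which can raise that value. Between 2 libraries of the knock-down group the pattern was alike: library 3 had 71.6% of the reads of library 1 in the top class and 60.5 to 63.4% in the others. Fewer reads per cell and fewer cells cannot be told apart in bulk RNA, and the part of these differences in the results below was not tested.

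For that reason each level is given as CPM, reads per 1e+06 after TMM scaling among all entries of the table, and beside it as the authors' RPM, reads per 1e+06 of their library total. On the scale among miRNAs, 181 of the 428 annotated miRNAs tested passed an edgeR adjusted p of 0.05, 104 higher and 77 lower with knock-down. Over all 579 entries tested, predicted ones included, 41.8% were called, 24% higher and 17.8% lower, which is the background for every count that follows. Of the 104 that were higher, 47 were so by at least 2-fold, and of the 77 that were lower, 36. In 103 of the 104 and 75 of the 77 the 3 knock-down and 3 control libraries did not overlap in CPM, against 55.3% of all entries tested. A call held in all 9 runs that each left out 1 library for 72 of the higher and 58 of the lower miRNAs. The 225 annotated miRNAs that were not tested had no count above 26 in the 6 libraries, and 9 of them were at 0 in all 6.

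The authors' RPM gave a different picture of level. In RPM, 382 of the 428 had all knock-down libraries below all control libraries (84.5% of all entries tested), 1 had them above, and 45 overlapped. In a fit scaled by those library totals 373 were lower (background 82.7%) and 2 higher (background 2.42%), and the median of all entries moved by -2.19 on the log2 scale. With library size alone, which leaves out the TMM factors, 36 were higher and 177 lower. All 77 lower miRNAs stayed lower on the scale of the totals. Of the 104 higher ones, 78 were called lower there, 24 were not called and 2 stayed higher. "Higher" below therefore means higher after TMM scaling, relative to most other entries. It need not mean a larger share of the miRNA reads of a library: with library size alone, 36 of the 104 were also called higher. As raw reads, 3 of the 428 tested, miR-7a-5p, miR-7b and miR-299b-5p, had more reads in every knock-down library than in every control. The knock-down libraries held fewer miRNA reads in all (and larger library totals), and 347 of the 428 had fewer reads in every one. miR-7b and miR-299b-5p had too few reads with Ad-GFP to pass the count filter. They were tested only because of their reads in other libraries, so their presence among the 3 is partly a matter of selection. Scaling by cyclic loess, which takes out a trend with abundance, kept 86 of the higher and 72 of the lower calls (42.3% of all entries called).

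**Figure D1:**
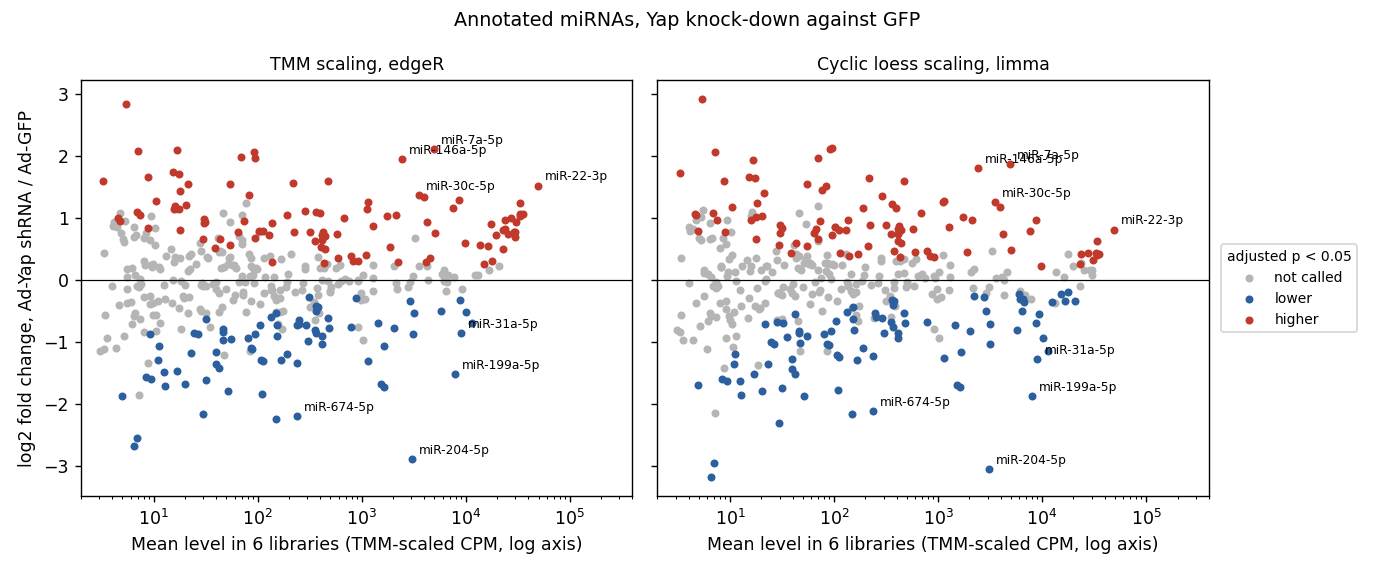
Log2 fold change of Ad-Yap shRNA over Ad-GFP (y) against the mean level in the 6 libraries (x, CPM, log axis), 1 point per annotated miRNA, with TMM scaling on the left and cyclic loess on the right. Entries that jump between libraries of a group or lie beyond 4 on the log2 scale, 24 in all, are not drawn. On the left most of the most abundant miRNAs sit above 0, and on the right that crowd moves towards 0 while miR-204-5p, miR-199a-5p, miR-7a-5p and miR-146a-5p stay apart.

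Among the miRNAs that were lower, miR-204-5p stood first. This miRNA, made from an intron of Trpm3, is best known from the eye and kidney. It was 5407, 5336 and 5461 CPM in the 3 Ad-GFP libraries and 735, 736 and 718 CPM with Ad-Yap shRNA, 7.4-fold lower (-2.89 ± 0.12 SE on the log2 scale, adjusted p = 1e-05). The 3 libraries of each group lay within a few percent of each other, and the groups were far apart. In raw reads it went from 23994, 23785 and 23068 to 1362, 951 and 817, and in RPM it was 1691 ± 46.8 RPM with Ad-GFP and 49.7 ± 12.8 RPM with Ad-Yap shRNA (SD, n = 3). Its near twin miR-211-5p, which has the same seed, was 48.2, 48.2 and 48.3 CPM with Ad-GFP and 14, 9.28 and 8.79 CPM with knock-down (-2.15 ± 0.32 SE on the log2 scale, adjusted p = 0.00158). That change has the same direction as the one of miR-204-5p and rests on 26, 12 and 10 reads in the knock-down libraries.

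The miR-199a hairpin, whose arms are enriched in fibroblasts and other mesenchymal cells and have been studied in heart muscle for their effects on proliferation and hypoxia responses, was lower in both arms. The 5p arm was 12680, 10918 and 11663 CPM with Ad-GFP and 4109, 4259 and 4006 CPM with knock-down (-1.51 ± 0.079 SE on the log2 scale, adjusted p = 2.04e-05). For the 3p arm the values were 2291, 2446 and 2229 against 828, 686 and 678 CPM (-1.67 ± 0.11 SE on the log2 scale, adjusted p = 5.56e-05). Neither arm overlapped between groups. The authors' RPM put the 5p arm at 3685 ± 364 RPM with Ad-GFP and 281 ± 70.3 RPM with Ad-Yap shRNA. After cyclic loess the 5p arm was -1.87 and the 3p arm -1.69 on the log2 scale, no smaller than with TMM. miR-214-3p, from the same primary transcript (Dnm3os), was 1526, 783 and 1733 CPM against 584, 1041 and 452 CPM. Its groups overlapped and it did not pass the test (-0.96 ± 0.37 SE on the log2 scale, adjusted p = 0.0684), although DESeq2 called it lower (adjusted p = 0.0097). The lone overlap came from library 2 of each group, and without Ad-GFP replicate 2 or Ad-Yap shRNA replicate 2 it passed (adjusted p = 0.0252 and 0.0153).

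Further large decreases came from unrelated hairpins. miR-674-5p, a rodent miRNA, was 384, 377 and 406 CPM with Ad-GFP and 88.5, 59.6 and 108 CPM with knock-down (-2.19 ± 0.21 SE on the log2 scale, adjusted p = 0.000256). For miR-23b-5p, the less abundant arm of its hairpin, the values were 257, 251 and 233 and 49.1, 50.3 and 57.1 CPM (-2.24 ± 0.15 SE on the log2 scale, adjusted p = 6.11e-05). The lipid and cholesterol regulator miR-33-5p, made from an intron of Srebf2, was 2803, 2021 and 2653 CPM with Ad-GFP and 749, 827 and 705 CPM with knock-down (-1.71 ± 0.39 SE on the log2 scale, adjusted p = 0.0093). In all 3 the lowest control library was above the highest knock-down library by more than the spread of either group. Other miRNAs among the 12 largest decreases were miR-1843a-3p (-1.78 ± 0.26, log2 ± SE), miR-760-3p (-1.67 ± 0.25) and miR-540-3p (-1.61 ± 0.27), with adjusted p of 0.00158, 0.00163 and 0.0025. Abundant miR-31a-5p was lower as well, at 11945, 10912 and 11935 CPM with Ad-GFP and 6834, 6507 and 5971 CPM with knock-down (-0.85 ± 0.12 SE on the log2 scale, adjusted p = 0.00143). In RPM miR-31a-5p was 3633 ± 232 RPM with Ad-GFP and 443 ± 138 RPM with Ad-Yap shRNA.

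**Figure D2:**
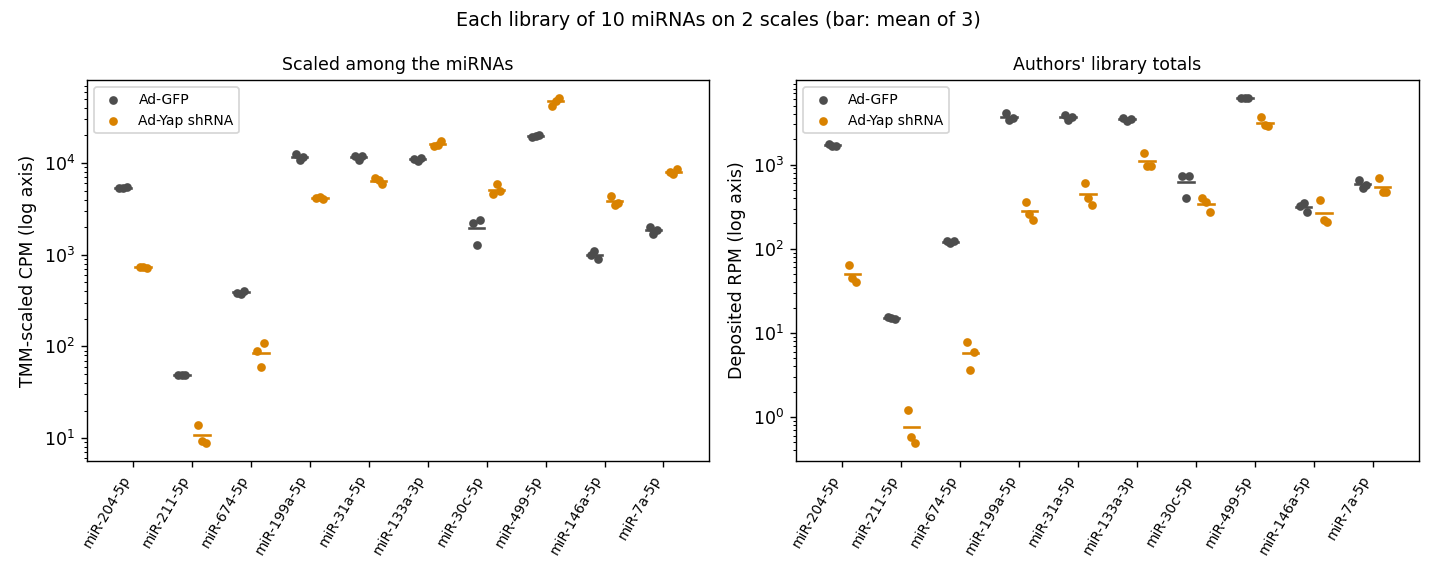
Each library of 10 miRNAs with Ad-GFP (grey) and Ad-Yap shRNA (orange), as TMM-scaled CPM (left) and as the authors' RPM (right), both on log axes, with bars at the mean of 3 libraries. miR-204-5p, miR-211-5p, miR-674-5p, miR-199a-5p and miR-31a-5p are lower with knock-down in both panels, whereas the other 5 are above the control on the left and at or below it on the right.

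Of the miRNAs that were higher, miR-7a-5p had the largest change among those with more than 1000 control reads that do not jump within a group. It is a brake on growth factor signalling, known for targets in the EGF receptor and PI3K pathways. Its level was 2009, 1698 and 1876 CPM with Ad-GFP and 7894, 7581 and 8610 CPM with knock-down, 4.31-fold higher (2.11 ± 0.11 SE on the log2 scale, adjusted p = 2.04e-05). Raw reads were 8915, 7568 and 7925 with Ad-GFP and 14621, 9798 and 9800 with Ad-Yap shRNA. In RPM it was 583 ± 60.8 RPM with Ad-GFP and 544 ± 126 RPM with Ad-Yap shRNA, groups that overlapped (log2 -0.10 when scaled by the library totals, adjusted p = 0.795). The close relative miR-7b had only 9, 4 and 4 reads with Ad-GFP and 18, 13 and 10 with knock-down (2.84 ± 0.36 SE on the log2 scale, adjusted p = 0.000882). With so few control reads it was tested only because of its reads in other libraries.

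miR-146a, which NF-kB induces and which dampens Toll-like receptor signalling, was higher in both arms. The 5p arm was 986, 1111 and 905 CPM with Ad-GFP and 4341, 3524 and 3706 CPM with knock-down (1.95 ± 0.11 SE on the log2 scale, adjusted p = 2.72e-05). Its 3p arm, at 32, 28 and 22 and 53, 29 and 34 reads, had a log2 fold change of 2.10 ± 0.21 (SE, adjusted p = 0.000344). miR-146b-5p was 738, 695 and 601 CPM against 1668, 1551 and 1639 CPM (1.26 ± 0.094 SE on the log2 scale, adjusted p = 7.55e-05). It has 2 base differences from miR-146a-5p. In RPM miR-146a-5p was 313 ± 34.6 RPM with Ad-GFP and 267 ± 97.2 RPM with Ad-Yap shRNA, so the 3 control libraries lay inside the range of the 3 knock-down libraries there. All 4 tested arms of the list of miR-146 and miR-155 were called higher, and 3 of those calls held in every run without 1 library.

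The cluster that holds miR-96, miR-182 and miR-183, known from sensory and epithelial cells, was higher for 2 of 3 tested arms. miR-96-5p went from 39.9, 30.3 and 35.3 CPM with Ad-GFP to 144, 172 and 126 CPM with knock-down (2.07 ± 0.19 SE on the log2 scale, adjusted p = 0.000219), and miR-182 from 118, 118 and 91.6 to 275, 449 and 252 CPM (1.58 ± 0.32 SE on the log2 scale, adjusted p = 0.00569). Groups of neither overlapped in CPM. miR-122-5p, the main miRNA of liver, was 202, 241 and 263 CPM against 396, 792 and 946 CPM (1.59 ± 0.34 SE on the log2 scale, adjusted p = 0.00688), but its raw reads were 898, 1076 and 1110 with Ad-GFP and 734, 1024 and 1077 with knock-down, close in number in libraries with different numbers of miRNA reads. Also among the 12 largest increases were let-7f-1-3p (1.98 ± 0.29, log2 ± SE, adjusted p = 0.00158), miR-1249 (1.75 ± 0.31, adjusted p = 0.00318) and miR-19a-3p (1.72 ± 0.39, adjusted p = 0.00947). The last 2 had fewer than 50 reads in each of the 6 libraries.

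The most abundant miRNAs were mostly higher on the CPM scale: 20 of the 29 in the top class were called higher and 4 lower. With cyclic loess 9 of the 29 were called higher and 9 lower. The median log2 fold change of the class was 0.74 with TMM and 0.16 with loess. miR-22-3p, a heart and muscle miRNA that the series title places between Yap and the deacetylase Sirt1, was 24788, 24716 and 26204 CPM with Ad-GFP and 56317, 77174 and 84601 CPM with knock-down (1.53 ± 0.23 SE on the log2 scale, adjusted p = 0.00163). Its raw reads hardly differed, 110004, 110172 and 110698 against 104314, 99749 and 96291, and its RPM fell from 7900 ± 186 to 4784 ± 119 (log2 -0.72 with the library totals, adjusted p = 0.0227). Cyclic loess gave a log2 fold change of 0.82 (limma adjusted p = 0.00257). The other arm, miR-22-5p, did not pass the test (-0.20 ± 0.15 SE on the log2 scale, adjusted p = 0.312). Next to it stood miR-26a-5p, a growth restraining miRNA, at 22597, 22634 and 23415 against 40980, 48058 and 54669 CPM (1.07 ± 0.16 SE on the log2 scale, adjusted p = 0.00163; loess 0.42). miR-21-5p, which is raised in many injured tissues, was 21611, 20643 and 21690 against 32075, 37105 and 40566 CPM (0.78 ± 0.16 SE on the log2 scale, adjusted p = 0.00673), and its loess value of 0.16 was not called (limma adjusted p = 0.159).

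The cells carry their label: the muscle miRNAs miR-499-5p, miR-1-3p and miR-133a-3p were abundant in both groups. Of 14 tested arms in the striated muscle list, 7 were higher, 0 lower and 7 not called, a share of higher calls above the 24% of all entries. The median log2 fold change of the list was 0.55 with TMM and 0.26 with loess, against 0.039 and 0.03 over all entries tested, and 4 of the 14 were higher with loess. miR-499-5p, made from an intron of a myosin gene, was 19298, 19861 and 20306 CPM with Ad-GFP and 41768, 47443 and 51562 CPM with knock-down (1.24 ± 0.13 SE on the log2 scale, adjusted p = 0.000445; loess 0.63). For miR-1-3p, the most muscle restricted miRNA, the values were 15967, 17063 and 18298 and 29908, 25988 and 34858 CPM (0.82 ± 0.12 SE on the log2 scale, adjusted p = 0.00158), and its loess value of 0.28 was not called (limma adjusted p = 0.0595). miR-133a-3p was 11008, 10625 and 11318 against 15524, 15622 and 17481 CPM (0.56 ± 0.084 SE on the log2 scale, adjusted p = 0.00158; loess 0.13, limma adjusted p = 0.167). The myosin intron miRNAs miR-208a-3p and miR-208b-3p, at 30.5 and 19.1 CPM in controls, did not pass the test (adjusted p = 0.885 and 0.25). They are the less abundant arms. The 5p arms of these 2 hairpins, at means of 4264 and 90 CPM over the 6 libraries, did not pass either (log2 0.23 and 0.083, adjusted p = 0.161 and 0.828). In RPM, miR-1-3p was 5352 ± 224 RPM with Ad-GFP and 2047 ± 517 RPM with Ad-Yap shRNA.

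miRNAs of other cell types that a heart digest can hold moved in more than 1 direction. The summed CPM of the 3 tested fibroblast arms was 14147 to 16496 with Ad-GFP and 5136 to 5985 with knock-down. The 2 tested endothelial arms, from miR-126a, were both higher, with a sum of 3581 to 4480 CPM against 6172 to 7429 CPM. Of the 4 smooth muscle and pericyte arms, miR-145-5p was higher (1.16 ± 0.23 SE on the log2 scale, adjusted p = 0.00451) and its cluster neighbour miR-143-3p lower (-0.32 ± 0.072 SE on the log2 scale, adjusted p = 0.00827). The 6 tested blood cell arms summed to 934 to 997 CPM and 839.5 to 856 CPM, with 0 higher and 1 lower, a call that ended in 3 of the 9 runs without 1 library. The 4 tested epithelial arms summed to 36.3 to 48.1 CPM and 41 to 44.8 CPM, where miR-429 was lower (-1.59 ± 0.19 SE on the log2 scale, adjusted p = 0.000793). The neuron list has 17 arms, of which 7 were tested, without any arm of miR-124 or miR-153. Of these 7 tested arms 6 were higher, 4 of them in every run without 1 library, with miR-138-5p at 488, 441 and 433 against 948, 831 and 952 CPM (1.00 ± 0.14 SE on the log2 scale, adjusted p = 0.00136). None of the annotated arms in these lists was at 0 in all 6 libraries. Cardiomyocytes express several of these miRNAs too, and the part of cell makeup in the other differences was not tested.

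Clustered hairpins were compared next. As joined here, hairpins within 10000 bases of each other form 33 clusters with at least 2 tested hairpins. At least 2 arms were called in 16 of them, all higher in 5, all lower in 4 and in both directions in 7, while 11 had 1 called arm and 6 had 0. The set is incomplete. miR-132 and miR-212 form none of the 33, nor do miR-199a and miR-214, and miR-106b is absent from the one with miR-25 and miR-93. The counts therefore cover only the clusters formed. The cluster on chromosome X that holds miR-322, miR-503, miR-351, miR-542 and miR-450, known for miRNAs that slow the cell cycle during muscle differentiation, had 9 of 11 tested arms lower and 0 higher, and 6 of the 9 calls held in every run without 1 library. miR-322-5p, its most abundant arm and the rat counterpart of human miR-424, was 15128, 13456 and 14118 CPM with Ad-GFP and 8313, 9217 and 8821 CPM with knock-down (-0.70 ± 0.10 SE on the log2 scale, adjusted p = 0.00158). miR-351-5p was 154, 173 and 183 against 42.1, 41 and 60.6 CPM (-1.83 ± 0.22 SE on the log2 scale, adjusted p = 0.000793), and miR-450b-5p 1005, 999 and 971 against 648, 521 and 595 CPM (-0.75 ± 0.15 SE on the log2 scale, adjusted p = 0.00588). miR-503-5p overlapped between the groups and was not called, at 387, 276 and 436 and 394, 477 and 388 CPM (0.20 ± 0.17 SE on the log2 scale, adjusted p = 0.404). The median over the cluster was -0.73 with TMM and -0.71 with loess.

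The miR-17-92 cluster, which promotes proliferation and is a known heart growth locus, went the other way: 6 of 7 tested arms assigned to it were higher and 0 lower, 5 of them in every run without 1 library, with a median log2 fold change of 0.87 (loess 0.86). In the wider list of the cluster and its paralogs, 11 of 18 tested arms were higher and 2 lower, and 9 of the higher and 0 of the lower calls held in every such run. Of the arms given next, miR-17-5p and miR-19b-3p are counted in this wider list and not among the 7. miR-17-5p was 396, 259 and 342 CPM with Ad-GFP and 504, 480.5 and 651 CPM with knock-down (0.71 ± 0.19 SE on the log2 scale, adjusted p = 0.017). For miR-20a-5p the values were 935, 834 and 954 and 1715, 1352 and 1908 CPM (0.87 ± 0.14 SE on the log2 scale, adjusted p = 0.0021), and for miR-19b-3p 429, 439 and 419 and 743, 652 and 752 CPM (0.74 ± 0.091 SE on the log2 scale, adjusted p = 0.000793). miR-106b-5p, from the paralogous cluster in Mcm7, was 275, 209 and 276 against 406, 703 and 503 CPM (1.08 ± 0.21 SE on the log2 scale, adjusted p = 0.00418), while its neighbour miR-93-5p did not pass the test (-0.035 ± 0.10 SE on the log2 scale, adjusted p = 0.827). All of these but miR-19b-3p carry the seed AAAGUGC. The fifth tested member with that seed is miR-20b-5p, from the paralogous cluster on chromosome X, with 52, 55 and 39 reads in the Ad-GFP libraries and 1, 0 and 6 in the Ad-Yap shRNA libraries (-2.67 ± 0.79 SE on the log2 scale, adjusted p = 0.0274). Its call ended in 5 of the 9 runs that left out 1 library, with adjusted p = 0.0682 without Ad-GFP replicate 1, 0.0659 without Ad-GFP replicate 2, 0.0526 without Ad-GFP replicate 3, 0.114 without Ad-Yap shRNA replicate 1 and 0.0725 without Ad-Yap shRNA replicate 2. The size of its change rests on single libraries too, with a log2 fold change of -2.11 without Ad-Yap shRNA replicate 1 or replicate 2 and of -4.95 without replicate 3 (adjusted p = 0.00396), the library with 6 reads. In RPM miR-17-5p was 104 ± 23.7 RPM with Ad-GFP and 36.5 ± 7.24 RPM with Ad-Yap shRNA.

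**Figure D3:**
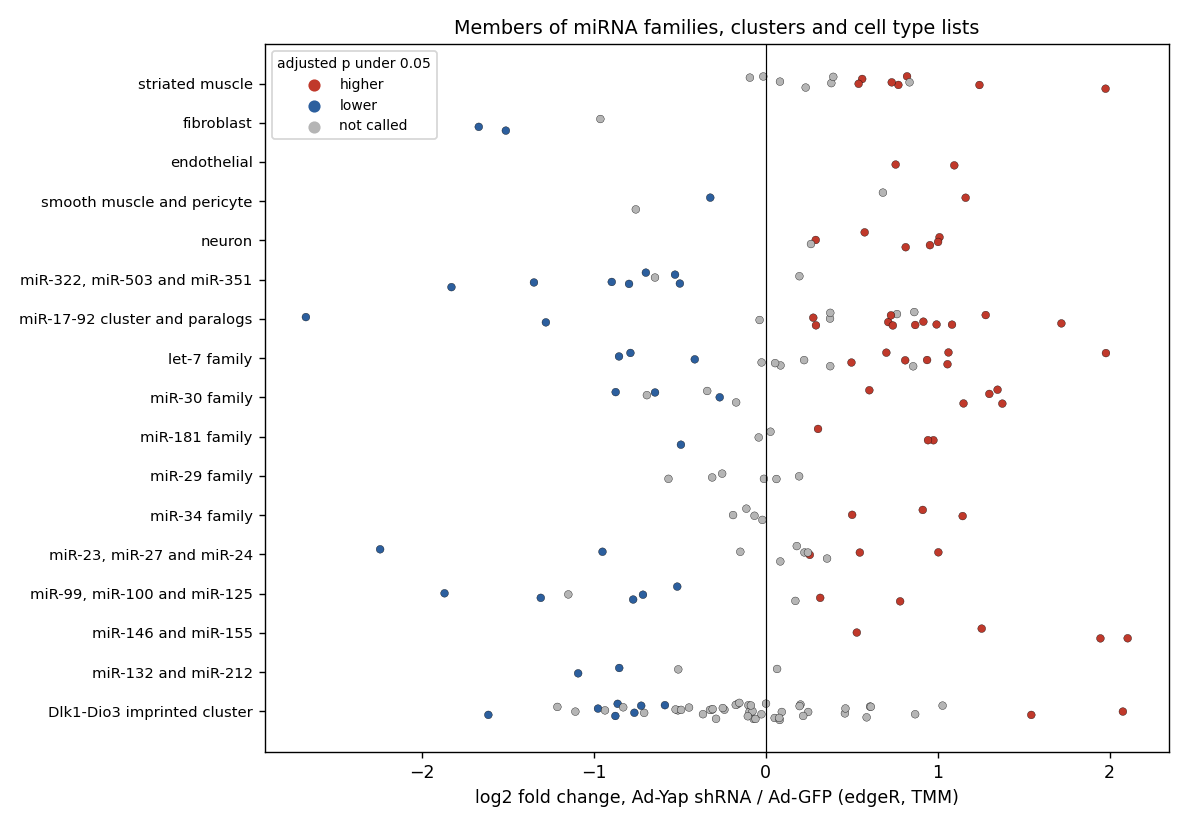
Log2 fold change of Ad-Yap shRNA over Ad-GFP (x, edgeR with TMM) for the tested members of 17 miRNA families, clusters and cell type lists (y), 1 point per arm, red where called higher, blue where called lower and grey where not called; vertical spread within a row has no meaning. Entries that jump within a group or lie beyond 4 are not drawn. The list of miR-322, miR-503 and miR-351 lies left of 0 for 8 of its 9 points, the list of miR-146 and miR-155 right of 0 for 4 of 4, and the miR-29 family holds 0 called members.

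Families that share a seed but not a locus gave mixed results. The 9 tested let-7 arms with the seed GAGGUAG, the family that restrains growth and marks differentiated cells, had 5 higher and 0 lower, and 4 of the 5 calls held in every run without 1 library. Their median of 0.70 with TMM became 0.087 with loess. let-7f-5p was 21056, 20938 and 22219 against 41298, 43255 and 49615 CPM (1.06 ± 0.13 SE on the log2 scale, adjusted p = 0.000793; loess 0.44), and let-7c-5p 22372, 22077 and 23758 against 34670, 40123 and 36155 CPM (0.70 ± 0.13 SE on the log2 scale, adjusted p = 0.00368; loess 0.087, limma adjusted p = 0.371). The miR-30 family moved less between these scalings. Of the 4 tested arms with the seed GUAAACA that RefSeq matched, miR-30a-5p, miR-30c-5p and miR-30e-5p were higher and miR-384-5p was not called, with medians of 1.25 (TMM) and 1.22 (loess). miR-30a-5p was 2375, 1733 and 2545 CPM with Ad-GFP and 4877, 6585 and 5480 CPM with knock-down (1.35 ± 0.22 SE on the log2 scale, adjusted p = 0.00211). For miR-30c-5p, a miRNA linked to connective tissue growth factor in heart, the values were 2243, 1289 and 2383 and 4588, 5841 and 4925 CPM (1.38 ± 0.23 SE on the log2 scale, adjusted p = 0.00231). The Ad-GFP libraries of both spread widely, with library 2 the lowest, and even so did not reach the knock-down range. miR-30e-5p had a log2 fold change of 1.15 ± 0.23 (SE, adjusted p = 0.00552) and miR-384-5p one of 0.074 ± 0.17 (adjusted p = 0.768).

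In the miR-181 family, 3 of the 4 tested arms with the seed ACAUUCA were higher, and 2 of these calls held in every run without 1 library. miR-181a-5p was 15767, 15969 and 16131 against 28465, 31545 and 34129 CPM (0.98 ± 0.12 SE on the log2 scale, adjusted p = 0.000793), and miR-181c-5p, which reaches mitochondria in heart cells, 2894, 2877 and 2829 against 5812, 5384 and 5350 CPM (0.94 ± 0.067 SE on the log2 scale, adjusted p = 6.69e-05). miR-181b-5p overlapped between the groups (0.028 ± 0.079 SE on the log2 scale, adjusted p = 0.82). The antifibrotic miR-29 family had 0 of 6 tested arms called in either direction, with miR-29a-3p at 0.063 ± 0.20 and miR-29b-3p at -0.31 ± 0.20 (log2 ± SE, adjusted p = 0.842 and 0.249). In the p53 linked miR-34 family 3 of 7 were higher. miR-34a-5p was 8518, 14354 and 13604 CPM with Ad-GFP and 20713, 23022 and 24974 CPM with knock-down (0.91 ± 0.21 SE on the log2 scale, adjusted p = 0.00949; loess 0.43, limma adjusted p = 0.102), while miR-34c-5p did not pass the test (-0.065 ± 0.30 SE on the log2 scale, adjusted p = 0.892). The hypertrophy linked cluster of miR-132 and miR-212 had 2 of 4 lower, miR-212-3p (-1.09 ± 0.11 SE on the log2 scale, adjusted p = 0.000344) and miR-132-5p (-0.85 ± 0.15 SE on the log2 scale, adjusted p = 0.00334). miR-148a-3p, a regulator of lipid handling, was lower (-1.34 ± 0.14 SE on the log2 scale, adjusted p = 0.000344), and the other 4 tested arms of the miR-148 and miR-152 list were not called.

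The 2 arms of a hairpin were both tested for 118 hairpins. Both were higher in 7, both lower in 6 and opposite in 9, while 53 had 1 called arm and 43 had 0. The 2 arms had the same sign in 63 of the 118. In 6 of the 9 opposite pairs the more abundant arm was the higher one, and in 3 the less abundant. These are calls with TMM, and the abundant arms were the ones that loess moved most. With loess 0 arms of the list of miR-99, miR-100 and miR-125 were called higher, so the pairs of miR-99a and miR-99b were not opposite there. Both calls held in every run without 1 library for 3 of the 9, the hairpins of miR-674, miR-99a and miR-342. miR-674-3p, the minor arm, was 12.4, 9.2 and 10.9 CPM with Ad-GFP and 29.1, 32.5 and 34.3 CPM with knock-down (1.56 ± 0.20 SE on the log2 scale, adjusted p = 0.000882), against the decrease of miR-674-5p given above. miR-99a-5p, of a family that targets mTOR, was 21754, 21800 and 22634 against 33323, 37810 and 42685 CPM (0.78 ± 0.15 SE on the log2 scale, adjusted p = 0.00418; loess 0.17, limma adjusted p = 0.0889) and its partner miR-99a-3p 156, 165 and 156 against 64.2, 60.4 and 68.5 CPM (-1.31 ± 0.11 SE on the log2 scale, adjusted p = 0.000191). For miR-342, from an intron of Evl, the 3p arm had a log2 fold change of 0.65 ± 0.10 and the 5p arm of -0.96 ± 0.17 (SE, adjusted p = 0.0021 and 0.00312). In RPM both arms of all 3 hairpins had lower means with knock-down.

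**Figure D4:**
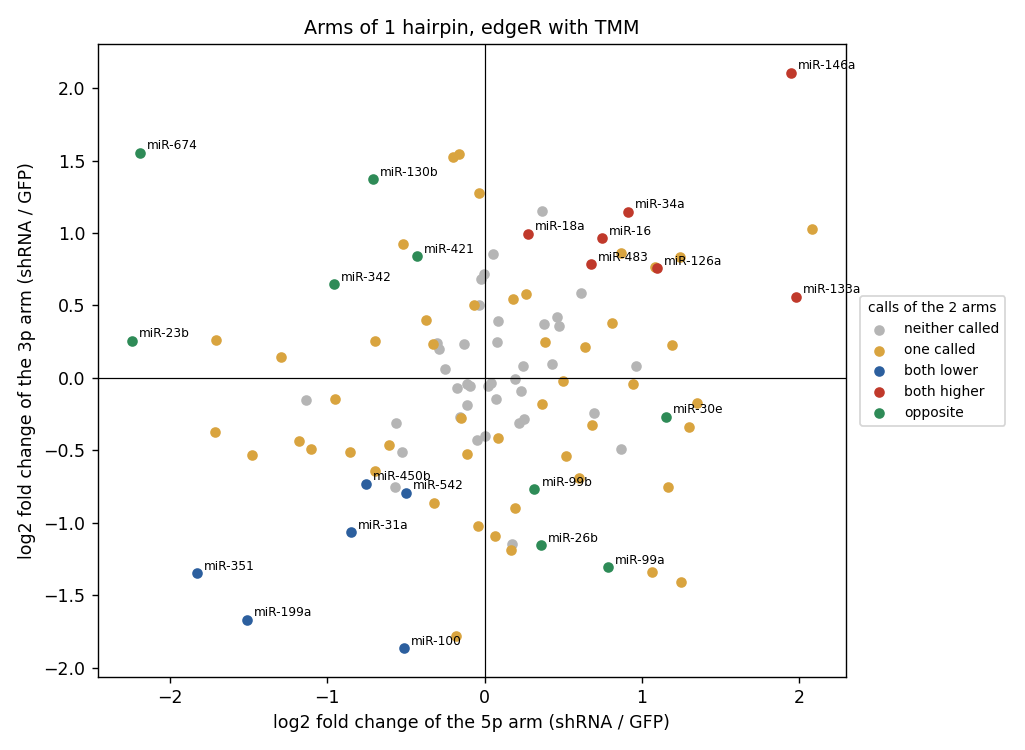
Log2 fold change of the 3p arm (y) against that of the 5p arm (x) for hairpins with both arms tested, Ad-Yap shRNA over Ad-GFP. Colours show the calls of the 2 arms with TMM, not all of which were made with loess. Entries that jump within a group or lie beyond 4 are not drawn. miR-146a and miR-133a lie far out where both arms are higher, miR-199a and miR-351 where both are lower, and miR-674 and miR-23b lie farthest out of the 5 opposite pairs at the upper left, the other 4 opposite pairs being at the lower right.

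The Dlk1-Dio3 imprinted cluster, a large group of miRNAs that are expressed from the maternal chromosome, had 56 tested arms, with 3 higher, 7 lower and 46 not called, a smaller share than over all entries, and 3 of the higher and 5 of the lower calls held in every run without 1 library. miR-127-3p was 2761, 2435 and 2460 CPM with Ad-GFP and 1652, 1507 and 1350 CPM with knock-down (-0.76 ± 0.10 SE on the log2 scale, adjusted p = 0.000966), and miR-154-3p 31.1, 22 and 30.1 against 81.5, 80.5 and 80.8 CPM (1.54 ± 0.16 SE on the log2 scale, adjusted p = 0.000344). miR-299b-5p had 0, 1 and 1 reads in the Ad-GFP libraries and 17, 9 and 8 in the Ad-Yap shRNA libraries (5.31 ± 0.68 SE on the log2 scale, adjusted p = 0.000929). On the summed reads, 2 against 34, the scaled ratio was 52.1 with an exact 95% interval from 13.4 to 447, which covers counting error only. Its control reads were too few for the count filter, so it was tested only because of its reads in other libraries. It is 1 of the 2 miRNAs that were higher on the scale of the library totals as well. It differs from miR-299a-5p at 1 of 20 bases compared, and that arm was higher too (2.08 ± 0.42 SE on the log2 scale, adjusted p = 0.00564). miR-299b-5p is counted in this list by name. RefSeq places it on the minus strand of chromosome 6 and miR-299a-5p on the plus strand, so it may not come from the transcript of the cluster. The other miRNA that was higher on the totals is given next. The other is miR-125b-5p, which is uncertain. It had 241, 176 and 341 reads with Ad-GFP and 18802, 36541 and 104 with knock-down, a jump within the knock-down group. let-7a-5p, with 97442, 2646 and 98745 and 77316, 61093 and 436 reads, and miR-378a-3p, with 9673, 76289 and 33 and 333, 113 and 114, jumped likewise. In all, 22 annotated miRNAs tested differed more than 8-fold within a group with a count above 300, and their values give no dependable direction. Of these 22, miR-125b-5p (called higher) and miR-378a-3p (called lower) are among the 181 calls, and they remain in the counts of calls given for lists, hairpins and all miRNAs.

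Levels with knock-down were also set against those with Ad-Yap WT, in the same fit. This comparison and the one with Ad-GFP share the knock-down libraries, so the results of one are not independent of the other, and values are given side by side. Between knock-down and overexpression 122 annotated miRNAs were called (28.5% of all entries tested). miR-204-5p, at 6137, 4439 and 4923 CPM with Ad-Yap WT, was lower with knock-down (log2 difference of -2.82 ± 0.12 SE, adjusted p = 1.17e-05). miR-31a-5p was 16078, 21735 and 17805 CPM with Ad-Yap WT, above all 3 controls, and was lower with knock-down (log2 difference of -1.53 ± 0.12 SE, adjusted p = 0.000254). miR-181c-5p, at 2218, 2349 and 2309 CPM with Ad-Yap WT, was higher with knock-down (log2 difference of 1.27 ± 0.068 SE, adjusted p = 2.64e-05), as were miR-133a-3p (log2 difference of 0.87 ± 0.084 SE, adjusted p = 0.000344) and miR-30d-5p (log2 difference of 1.10 ± 0.16 SE, adjusted p = 0.00254). miR-30d-5p was 5126, 4118 and 5732 CPM with Ad-GFP and 10933, 14473 and 11485 CPM with knock-down (1.30 ± 0.16 SE on the log2 scale, adjusted p = 0.000881). In the striated muscle list 9 of 14 arms were higher with knock-down than with Ad-Yap WT and 0 lower, and in the cluster of miR-322 0 of 11 were higher and 7 lower.

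Other miRNAs that differed from Ad-GFP were not called between the 2 manipulations. miR-146a-5p was 4241, 4016 and 4436 CPM with Ad-Yap WT, and did not pass the test against knock-down (log2 difference of -0.13 ± 0.11 SE, adjusted p = 0.402). miR-96-5p (log2 difference of 0.43 ± 0.18 SE, adjusted p = 0.11), miR-182 (log2 difference of 0.057 ± 0.31 SE, adjusted p = 0.904) and miR-34a-5p (log2 difference of -0.022 ± 0.21 SE, adjusted p = 0.944) were not called either, which does not show that the 2 viruses act alike. miR-7a-5p, at 4201, 5264 and 4902 CPM with Ad-Yap WT, was above Ad-GFP in both and higher with knock-down (log2 difference of 0.75 ± 0.11 SE, adjusted p = 0.00254). miR-222-3p was not called against Ad-GFP: it was 6214, 6175 and 5784 CPM with Ad-GFP and 6035, 6458 and 6389 CPM with knock-down (0.055 ± 0.087 SE on the log2 scale, adjusted p = 0.66), and 11536, 13540 and 13549 CPM with Ad-Yap WT, above knock-down (log2 difference of -1.03 ± 0.088 SE, adjusted p = 0.000256). The Ad-Yap WT libraries held 2.29 ± 0.52 M annotated reads, between those of the other groups, and 12.2 ± 4.5% of the library totals.

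**Figure D5:**
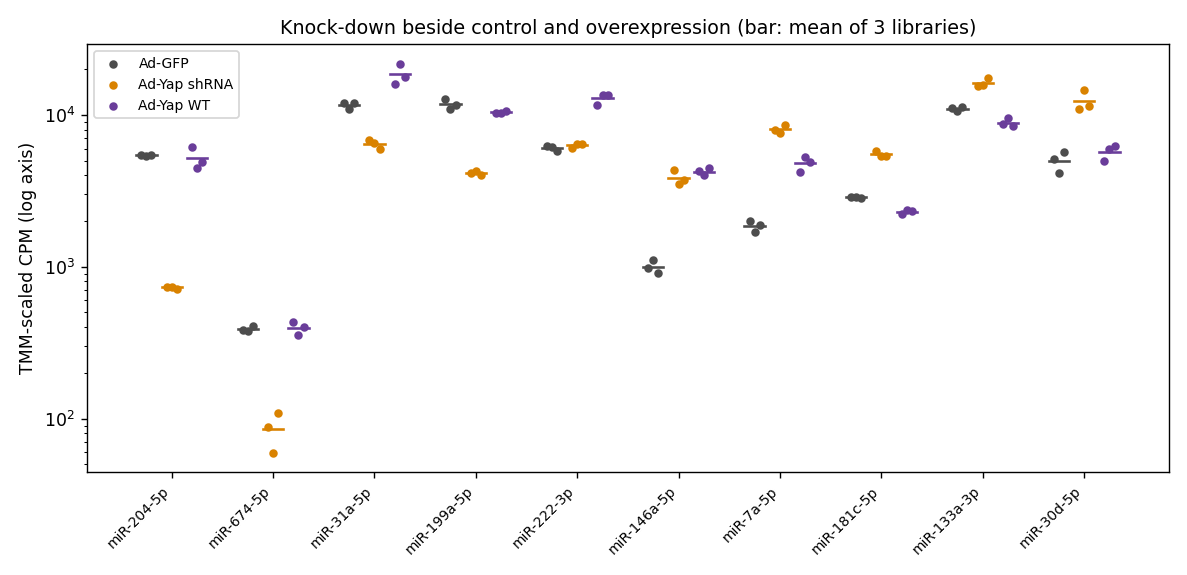
TMM-scaled CPM (y, log axis) of 10 miRNAs in each library of Ad-GFP (grey), Ad-Yap shRNA (orange) and Ad-Yap WT (purple), with bars at the mean of 3 libraries. miR-204-5p, miR-674-5p and miR-199a-5p are low with knock-down and near the control with overexpression, miR-146a-5p is raised in both manipulated groups, and miR-31a-5p is below the control with knock-down and above it with overexpression.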

How the data were processed

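Small RNA was sequenced in 9 libraries, 3 each of Ad-GFP, Ad-Yap shRNA and Ad-Yap WT. Per the labels' protocols, a small RNA kit with adaptor ligation, PCR and gel size selection was used, followed by single-end sequencing (BGI). Oligo(dT) enrichment of mRNA with a further kit is mentioned there as well, without saying whether it was applied to these libraries. Per the submitters' processing notes, Bowtie2, DESeq2 and the rn6 build were used, with no roles given. The table holds read counts, whole numbers that the authors deposited without normalization, and RPM values that the authors computed by dividing counts by a library total of 13.7 to 22.1 M (1e+06 reads); the sources used here do not say what that total counts. Group averages that the authors deposited (estimated counts and RPM) were not used. Molecular identifiers are not mentioned in those sources.

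Counts were tested with edgeR 4.0.16 in R 4.3.3 (filterByExpr, TMM, glmQLFit and glmQLFTest) on 579 entries in 1 fit of 9 libraries, with Benjamini-Hochberg adjustment over all of them, two-sided, at 0.05. CPM is TMM-scaled reads per 1e+06, and each SE was derived from the F statistic as log2 change over its square root. Every adjusted p in the text is edgeR's unless limma (3.58.1) is named. Library-level measures were tested with exact two-sided permutations. The method was tested on simulated data, with an outcome that is not given here. Those data had no trend with abundance built in, so they do not show how the method deals with one. Alternatives were DESeq2 1.42.0, limma-voom, other scalings and filters, a 2-group fit, a replicate block and each library left out. Low counts are imprecise, and PCR reads are not independent molecules.

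The members, lists, tests and the naming rule were chosen with earlier results of these data known. The rule took called miRNAs without overlap in CPM (12 changes each way, ranked by size, above a mean of 10 CPM, and the 8 with most reads), up to 4 per list by p, hairpins with both arms called, seed groups and miR-22. It took 171 miRNAs, and many of these are not named in the text. Of the miRNAs named, 7 lie outside the rule and were chosen after their values were seen: miR-208a-3p, miR-208b-3p, miR-21-5p, miR-299a-5p, miR-29a-3p, miR-450b-5p and miR-503-5p. Hairpin positions used to form clusters and the mature sequences are from RefSeq (GRCr8), another build than rn6, so no coordinates are given.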

Additional observations from a re-analysis of the deposited data

How the results depend on the processing

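The scaling changed the direction of many results. With the deposited library totals 375 annotated miRNAs were called, 2 higher and 373 lower, and with library size alone 36 were higher and 177 lower, against 104 and 77 with TMM. Under the other scalings, filters, tools and fits, 144 to 192 were called, with the fewest when no filter on low counts was used and 192 with DESeq2. The runs that each left out 1 of the 9 libraries gave 147 to 180 calls, 78 to 104 higher and 63 to 77 lower, and such runs put the difference in annotated reads between -1.68 and -1.98 M reads and the difference in the share of the 10 most abundant between 10.7 and 12.4 percentage points. Leaving out entries that jump within a group, chosen after seeing the data, gave 192 calls. The comparison with Ad-Yap WT was run in 1 setting. With the replicate number as a block, 170 were called, 95 higher and 75 lower. Deviations of same-numbered Ad-GFP and Ad-Yap shRNA libraries had correlations of 0.11, 0.035 and -0.33, and those of differently numbered ones ran from -0.31 to 0.23. With 3 libraries a group, these values cannot show whether the numbers pair the samples.

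A change of direction is counted here for miRNAs named in the text that were called with TMM or with the alternative. On the library totals there were 43, a scaling that moved the median of all entries by -2.19; their log2 fold changes there were let-7c-5p -1.51, let-7f-1-3p -0.19, let-7f-5p -1.16, miR-1-3p -1.39, miR-106b-5p -1.16, miR-122-5p -0.70, miR-1249 -0.44, miR-133a-3p -1.65, miR-138-5p -1.20, miR-145-5p -1.09, miR-146a-5p -0.23, miR-146b-5p -0.94, miR-154-3p -0.65, miR-17-5p -1.51, miR-181a-5p -1.25, miR-181b-5p -2.19, miR-181c-5p -1.25, miR-182 -0.65, miR-193b-3p -1.16, miR-19a-3p -0.49, miR-19b-3p -1.46, miR-208b-3p -1.80, miR-20a-5p -1.33, miR-21-5p -1.45, miR-215 -0.51, miR-22-3p -0.72, miR-221-3p -1.81, miR-222-3p -2.16, miR-26a-5p -1.17, miR-299a-5p -0.13, miR-29a-3p -2.11, miR-30a-5p -0.88, miR-30c-5p -0.84, miR-30d-5p -0.92, miR-30e-5p -1.07, miR-34a-5p -1.30, miR-384-5p -2.14, miR-499-5p -0.98, miR-503-5p -2.01, miR-674-3p -0.66, miR-7a-5p -0.10, miR-96-5p -0.14 and miR-99a-5p -1.45. With library size alone there were 4, miR-133a-3p -0.037, miR-181b-5p -0.57, miR-221-3p -0.20 and miR-222-3p -0.54. With cyclic loess there were 2, miR-181b-5p -0.30 and miR-222-3p -0.30, and the cause was not tested. The sign also differed without a call in either fit for 1 miRNA on the totals (let-7a-5p), 4 with library size alone (miR-208b-3p, miR-29a-3p, miR-384-5p and miR-503-5p) and 1 with loess (miR-29a-3p). Miscounts of reads that match several miRNAs could not be checked here, and depth limited the rarer ones: 31 of 102 with a mean below 50 reads were called, none of them with a log2 change smaller than 0.81 in size (median SE 0.36), against 81 of 136 from 1000 reads up (smallest 0.26, median SE 0.12), entries that jump left out.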

Other observations

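Further lists gave the following values, on the scale among miRNAs. In the family of miR-16 (with miR-15, miR-195 and miR-497), 2 of 7 tested arms were higher and 1 lower (calls that held in every run without 1 library, 1 and 1), and in the clusters that hold miR-24, miR-23 and miR-27, 3 of 11 were higher and 2 lower (held, 2 and 1). The miR-130 and miR-301 list had 3 of 7 higher and 1 lower (held, 1 and 1), and the miR-26 family 2 of 4 higher and 1 lower (held, 1 and 1). In the list of miR-99, miR-100 and miR-125, 3 of 11 were called higher and 5 lower (held, 1 and 5). One of those higher calls is miR-125b-5p, which jumps within a group, and without the 2 entries of that list that jump 2 of 9 were higher and 5 lower. For miR-221 and miR-222, 1 of 3 tested arms was higher and 0 lower, the call of miR-221-3p (log2 0.40, edgeR adjusted p = 0.0451), which held in the run without Ad-GFP replicate 2 and ended in the 8 others that each left out 1 library (adjusted p from 0.0281 to 0.142 over the 9). miR-193b-3p, of a list with miR-365 in which 2 of 4 were higher and 1 lower (held, 1 and 1), was 1194, 955 and 1271 CPM with Ad-GFP and 2343, 2511 and 2179 CPM with Ad-Yap shRNA (log2 fold change 1.04 ± 0.13 SE, edgeR adjusted p = 0.000931). Of 4 tested arms from miR-192, miR-194 and miR-215, 1 was higher and 0 lower (held, 1 and 0). The imprinted Igf2 and H19 loci had 2 of 4 higher and 0 lower, and neither of those calls held in every such run. Mirtrons and other Drosha independent miRNAs had 1 of 5 higher and 2 lower (held, 0 and 1). In a list on lipid and energy metabolism 1 of 11 was called higher and 2 lower (held, 1 and 1). One of the lower calls is miR-378a-3p, which jumps, and without the 2 entries of that list that jump 1 of 9 was higher and 1 lower. Of 15 tested arms that the literature links to Yap, 1 was higher and 2, both from miR-199a, were lower (held, 0 and 2). Over all 579 entries, 24% were higher and 17.8% lower.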
